A study of Mus musculus with 27 samples.

Results

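The proteasome was followed through 58 probe sets for 46 genes, out of 12488 probe sets on the array. They were chosen by name: every probe set whose single gene symbol in the platform annotation began with Psma, Psmb, Psmc, Psmd, Psme, Psmf or Psmg and went on with a digit. Of these, 56 belong to proteasome subunits, activators or assembly factors. The other 2, for Psmc3ip, a meiotic recombination factor, and Psme3ip1, a nuclear protein that binds Psme3, encode none of these and were kept apart. No probe set with a single Psmf symbol was found, and 2 probe sets that list Psme2 beside another symbol were not members.

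The cells were NIH/3T3, an established line of mouse embryo fibroblasts, profiled on 27 Affymetrix U74v2 mouse arrays. Cultures were first weaned to lower serum, then given a pulse of 15 µM forskolin for 2 h in serum-free DMEM, rinsed, and kept in serum-free DMEM. Forskolin activates adenylyl cyclase and so raises cyclic AMP. Flasks were harvested at the end of the pulse, called 0 h, and at steps of 6 h until 48 h in 3 experiments, named in the labels as biological replicates, which gives 9 groups of 3 arrays. Every group carried the pulse and the serum-free medium, so a change from 0 h is not a change from untreated cells. The series title asks which transcripts follow a circadian course.

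The proteasome is the protease that degrades proteins tagged with ubiquitin. Its barrel-shaped core, the 20S particle, is made of outer rings of alpha subunits, which gate the entrance, and inner rings of beta subunits, which carry the protease sites. The 19S cap adds a base, with a ring of ATPases that unfold the substrate, and a lid, which removes the ubiquitin chain. In cells exposed to interferon the catalytic beta subunits are exchanged for those of the immunoproteasome, which favours peptides for class I antigen presentation. Cells are known to set the levels of many subunit genes together, in part through the transcription factor Nfe2l1.

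Levels are log2 intensities after quantile normalization, and changes are differences of these levels, given ± SE over 3 arrays at each time. Adjusted p-values are those of limma over all 7453 probe sets kept by a filter on dim signals. Since arrays of the same experiment deviated together, values given here whose call changes with the experiment as a block are also given with it. The filter kept 49 member probe sets, for 41 genes. The 9 left out were those of Psmb8, Psmb9, Psmc4, Psmd2 and Psmc3ip, and 1 further probe set each of Psmb1, Psmb4, Psmc5 and Psme1. Nearest the limit of 6.77 were Psmb4 (98556_at), kept at a mean level of 7.08, and Psmb9, left out at 6.67. These are bulk samples, in which fewer cells of a type and less RNA per cell cannot be told apart.

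Array medians before normalization lay between 166.8 and 200.7 intensity units, and the 3′ to 5′ ratio of the actin control probe sets ran from 1.11 to 1.73. All 7 fibroblast markers were measured, with Col1a1, Col1a2, Col3a1 and S100a4 each represented above the 99th percentile of all probe sets, but Vim, a defining one, only at the 46th percentile. Of the 11 fibroblast probe sets 3 rose at 48 h without the block, all for Col3a1, against 4.68% of all probe sets. Of 15 probe sets for markers of other cells, 10 fell below the filter, including every one for leukocytes and endothelium. Those kept were for Snap25, Myog, Myod1, Cdh1 and Gfap. Their percentiles were 53.9, 48.1, 56.6, 71.3 and 47.1 in this order, each above that of Vim. None of these 5 was called at 6 h, 24 h or 48 h without the block. With it Snap25, a neuronal marker, was called at 24 h, at 0.77 ± 0.24 (adjusted p = 0.0537, and 0.00664 with the block). Their part in the proteasome values was not tested.

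The constitutive subunits of the 20S core and the 19S cap, 41 probe sets of which 36 for 29 genes were tested, had on the median their highest level at the end of the pulse and lower levels at each later time. Relative to 0 h the median change was −0.22 after 6 h, −0.32 after 12 h, −0.28 after 18 h and −0.29 after 24 h. On the second day it was −0.19 after 30 h, −0.16 after 36 h, −0.24 after 42 h and −0.17 after 48 h. Over all probe sets tested the median change stayed between −0.00484 and 0.0148 at these times. Between 31 and 33 of the 36 probe sets were below their 0 h mean at each time. Of all probe sets tested 50.6% were lower at 6 h, 49.2% at 24 h and 49.9% at 48 h. All these changes share the same 3 arrays at 0 h, so they are not independent of one another. The median change was negative in each experiment at every time, and at 24 h it was −0.19 in experiment 1, −0.27 in experiment 2 and −0.36 in experiment 3. Without experiment 3 the median at 6 h was −0.15.

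**Figure D1:**
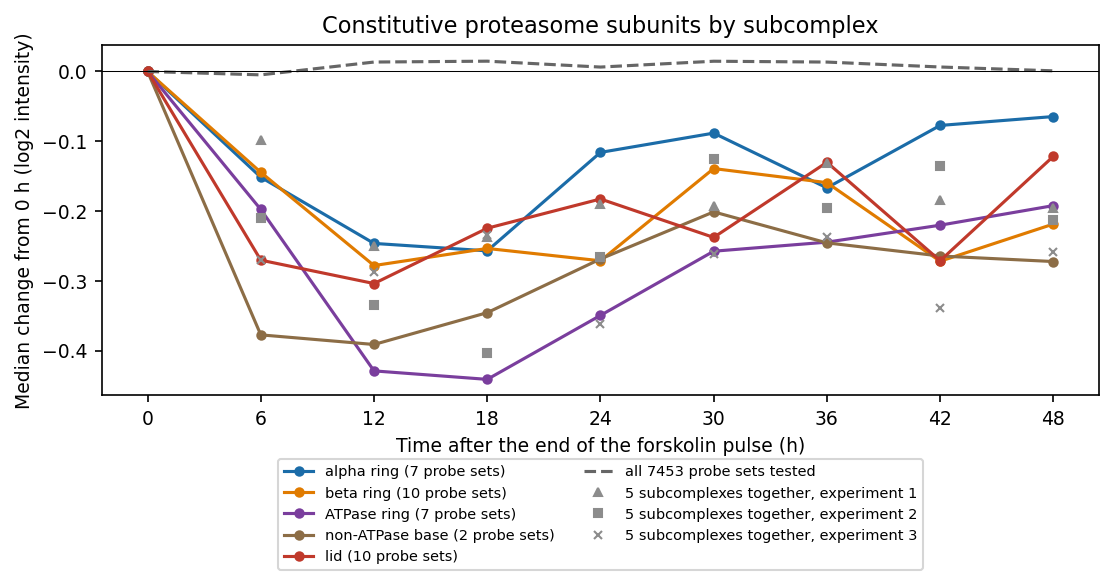
Median change from 0 h (log2 intensity) of the constitutive subunits of each subcomplex against time after the pulse, with the median of all 5 subcomplexes in each experiment as grey symbols and that of all 7453 probe sets as a dashed line. Each subcomplex lies below 0 from 6 h to 48 h, with the ATPase ring lowest at 12 h to 24 h, while the dashed line stays near 0.

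The highest of the 9 time means fell at 0 h for 26 of the 36 constitutive probe sets, against 20.9% of all probe sets. The lowest fell at 12 h for 14, at 18 h for 8 and at 24 h for 6 of them. At 24 h, 21 of the 36, or 58.3%, were lower than at 0 h in all 3 experiments, against 22.6% of all probe sets. At 12 h this was so for 25 of 36 probe sets, against 23.2% of all.

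Without the block few of these subunits passed the test one by one. Their changes were small against a spread between arrays that included the differences between experiments. The counts that follow are over the 49 tested members. In the F test over all 9 time points 1 member was called, Psmd14, against 7.3% of all probe sets. With the experiment as a block 7 members were called, against 26.4% of all: Psmd13, Psma1, Psmd14, Psmb7, Psmc2, Psmc3 (93735_f_at) and Psmb5 (101558_s_at). At 6 h against 0 h 1 member fell, Psmd13, against 2.37% of all probe sets. With the block 6 fell, against 6.78%, the others being Psma1, Psmb2, Psmc5, Psmd14 and Psme3. At 24 h 2 members fell, Psmd13 and Psma1, against 2.86% of all. With the block 15 fell, all of them among the 36 constitutive probe sets, of which they were 41.7%, against 8.01% of all. With it 1 member rose, Psme3ip1, against 10.6% of all. At 48 h 1 member fell, Psmd13, against 3.23%, and with the block 7 fell, against 9.16%, while Psme3ip1 rose, against 10.8%. Without the block the members' shares thus lay near the background. The shares that fell with the block at 6 h, 24 h and 48 h lay above it, and that of the F test below it in either fit.

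**Figure D2:**
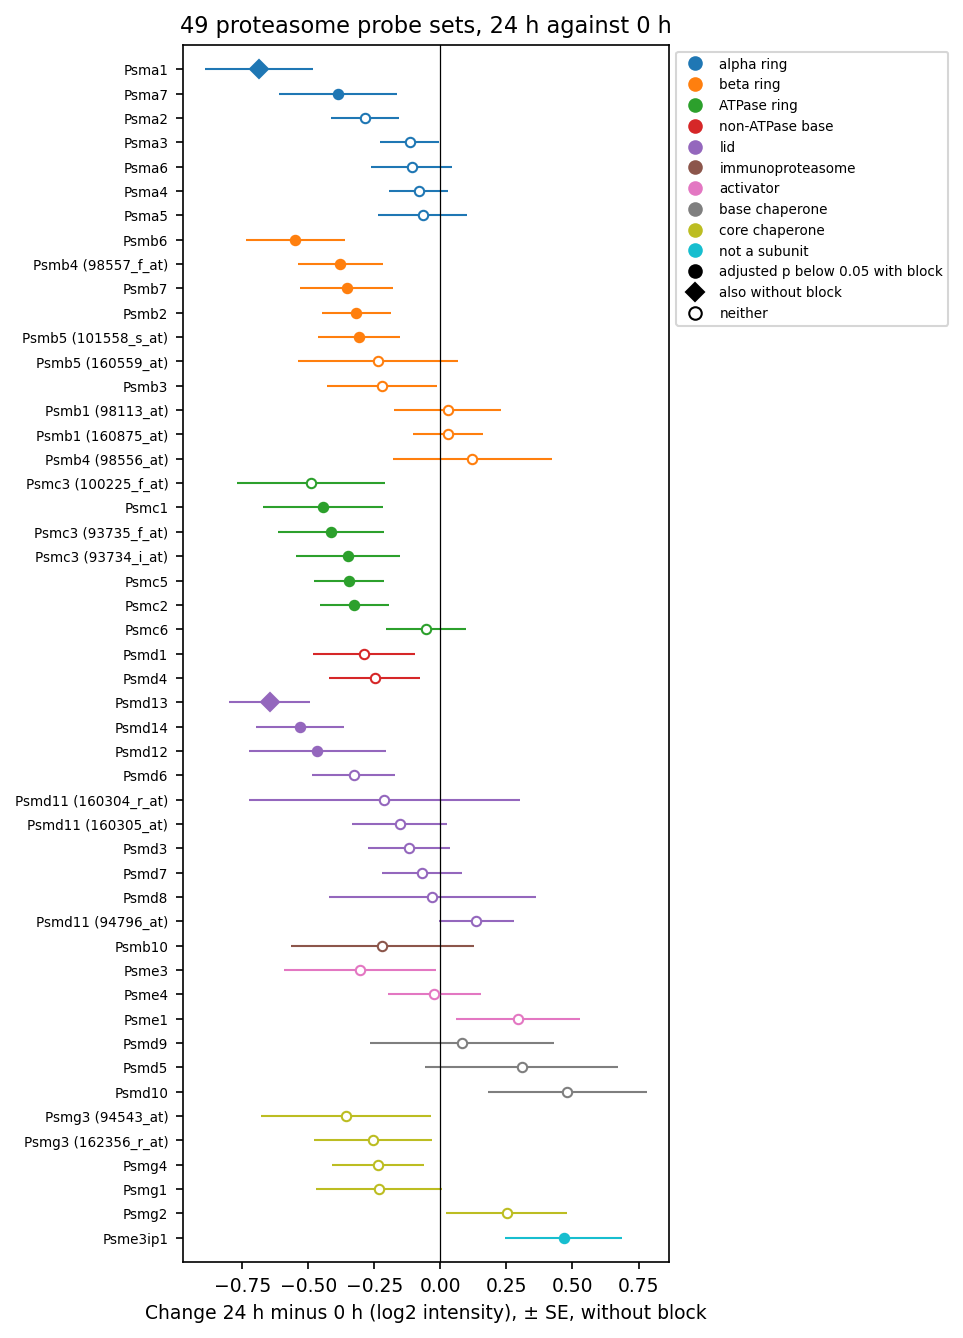
Change from 0 h to 24 h (log2 intensity, bars ± SE, fit without the block) of the 49 tested probe sets, ordered by subcomplex and size; filled circles mark an adjusted p below 0.05 only with the experiment as a block, diamonds both with and without it. Psma1 and Psmd13 lie farthest to the left, and 39 of the 49 points are below 0.

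In the alpha ring, 7 of 7 probe sets were lower at 24 h than at 0 h, against 49.2% of all, and the median change was −0.12. Of the 7, 1 was called without the block, where 2.86% of all probe sets fell, and 2 with it, against 8.01%. Psma1 stood apart from the rest of its ring. Its level at 0 h was 9.12, 9.08 and 8.94 in experiments 1, 2 and 3, and at 24 h it was 8.48, 8.35 and 8.25, so that the time points did not overlap. The change was −0.69 ± 0.21 at 24 h (limma adjusted p = 0.0439, and 0.000568 with the block). At 12 h it was −0.77 ± 0.21, and at 48 h −0.45 ± 0.21 (adjusted p = 0.22, and 0.0169 with the block). Without any 1 of the experiments the 24 h change lay between −0.66 and −0.70, with adjusted p-values from 0.116 to 0.353. Psma7 had a change of −0.39 ± 0.22 at 24 h (adjusted p = 0.391, and 0.0268 with the block). The other alpha subunits ranged from −0.29 for Psma2 to −0.07 for Psma5 at 24 h, and Psma3 had a change of −0.12 ± 0.11.

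In the beta ring, 10 of 12 probe sets, for 7 genes, were tested. Of these 7 were lower at 24 h, against 49.2% of all, and the median change was −0.27. No beta probe set was called at 24 h without the block, where 2.86% of all probe sets fell. With the block 5 fell, against 8.01%. The 3 protease sites lie on Psmb6, which cuts after acidic residues, Psmb7, which cuts after basic ones, and Psmb5, which cuts after hydrophobic ones. The level of Psmb6 was 11.03, 11.46 and 11.12 at 0 h and 10.65, 10.81 and 10.50 at 24 h, without overlap. Its change was −0.55 ± 0.19 (adjusted p = 0.083, and 0.00469 with the block). Psmb7 was still at its starting level at 6 h, with a change of −0.02 ± 0.18, then −0.57 ± 0.18 at 18 h and −0.50 ± 0.18 at 48 h (adjusted p = 0.0918 at 48 h, and 0.00333 with the block). The brighter Psmb5 probe set (101558_s_at) had a change of −0.31 ± 0.16 at 24 h (adjusted p = 0.304, and 0.0475 with the block). The dimmer one (160559_at) had a change of −0.23 ± 0.30.

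Among the beta subunits without a protease site, Psmb2 had a change of −0.35 ± 0.13 at 6 h (adjusted p = 0.127, and 0.0212 with the block) and −0.32 ± 0.13 at 24 h (0.171 and 0.0345). Psmb1 was the exception of the ring. Its 2 tested probe sets each had a change of 0.03 at 24 h. From 6 h to 48 h the first of them (160875_at) had a slope of −0.20 ± 0.06 per day (adjusted p = 0.0506, and 0.00837 with the block, where 9.03% of all probe sets fell). The probe sets of Psmb4 differed in sign at 24 h: −0.38 ± 0.16 for the bright one (98557_f_at; adjusted p = 0.188, and 0.0112 with the block) and 0.12 ± 0.30 for the one just above the filter (98556_at). The bright one was also called without the block when the arrays were taken as deposited (−0.48, adjusted p = 0.0381) or centred on their medians (−0.48, 0.0238).

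In the ATPase ring all 7 tested probe sets, for 5 of its genes, were lower at 24 h than at 0 h in all 3 experiments. This was so for 22.6% of all probe sets. The median change of the ring was −0.35. The time means of all 7 were below that of 0 h at 6 h, 12 h and 30 h too, against 6 of 7 at 18 h, 36 h and 42 h and 5 of 7 at 48 h. None was called at 24 h without the block, where 2.86% of all probe sets fell. With the block 5 fell, against 8.01%: Psmc1, Psmc2, Psmc5 and 2 of the 3 for Psmc3. At 12 h the median was −0.43 and at 18 h −0.44. The level of Psmc2 was 11.04, 11.10 and 10.99 at 0 h, and 10.53, 10.46 and 10.39 at 12 h, without overlap. Its change was −0.59 ± 0.13 at 12 h and −0.33 ± 0.13 at 24 h (adjusted p = 0.155, and 0.0296 with the block). Psmc5 had a change of −0.41 ± 0.13 at 6 h (adjusted p = 0.0704, and 0.0172 with the block). Its level was 9.69, 9.61 and 9.40 at 6 h and 9.60, 9.53 and 9.35 at 12 h, lower at 12 h in each experiment. Psmc6 had the smallest change of the ring at 24 h, −0.05 ± 0.15, and was the highest of it at 48 h, at 0.24 ± 0.15. Psmc4 was below the filter on this array and gave no test.

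Of the base subunits outside the ATPase ring, Psmd2 was below the filter. Psmd1, the large scaffold of the base, had a change of −0.38 ± 0.19 at 6 h, −0.55 ± 0.19 at 12 h and −0.29 ± 0.19 at 24 h. Psmd4, which binds ubiquitin chains, had a change of −0.38 ± 0.17 at 6 h and −0.39 ± 0.17 at 48 h (adjusted p = 0.257 and 0.2). Neither was called at 6 h, 24 h or 48 h with or without the block.

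The lid held the member called most often. Psmd13, a structural subunit of the lid, was at 9.79, 9.96 and 10.06 at 0 h, and at 9.26, 9.49 and 9.32 at 6 h. None of its 24 later arrays reached the lowest level at 0 h. It fell by 0.58 ± 0.15 at 6 h (adjusted p = 0.0241), by 0.65 ± 0.15 at 24 h (0.0105) and by 0.52 ± 0.15 at 48 h (0.0365), in each experiment at each of these times. With the block the adjusted p-values were 0.000617, 0.000155 and 0.00116. Without experiment 3 the 24 h change was −0.51 (adjusted p = 0.414) and without experiment 2 it was −0.73 (0.0567). At 6 h and 48 h the adjusted p-value lay between 0.0622 and 0.45 with any 1 experiment left out. With arrays centred on their medians it was 0.106, 0.0517 and 0.119 at 6 h, 24 h and 48 h.

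**Figure D3:**
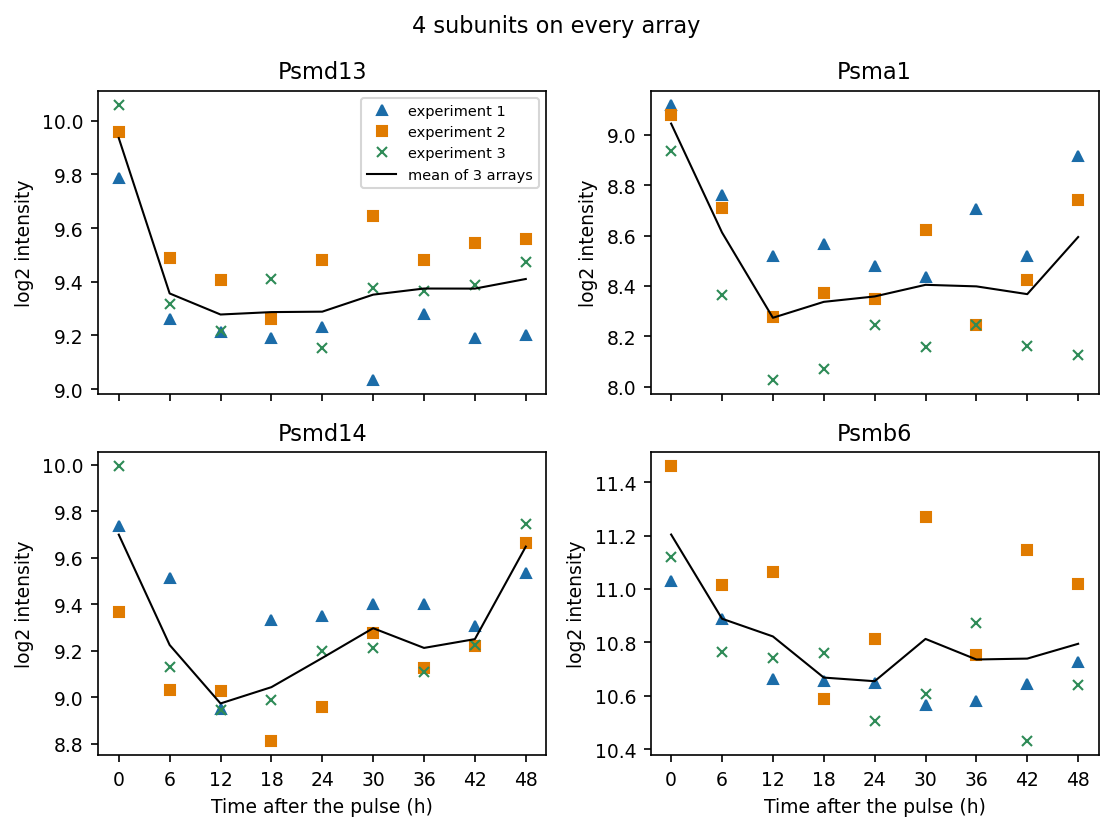
Level (log2 intensity) on every array of Psmd13, Psma1, Psmd14 and Psmb6 against time after the pulse, with 1 symbol per experiment and a line through the means of 3 arrays. The 0 h means are the highest in all 4 panels, and Psmd14 at 48 h differs by −0.05 from its 0 h mean.

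Psmd14, the deubiquitinase of the lid, was low at 12 h and near its first level at 48 h. Its level was 9.74, 9.37 and 9.99 at 0 h, 8.95, 9.02 and 8.94 at 12 h, and 9.53, 9.66 and 9.75 at 48 h. The arrays at 12 h lay below both of the other sets, which overlapped with each other. It varied over the 9 time points (adjusted p = 0.0433, and 0.00251 with the block), but no member was called in this test with values as deposited, without the filter, without the 12 h arrays or with any 1 experiment left out. The change was −0.73 ± 0.17 at 12 h, −0.53 ± 0.17 at 24 h (adjusted p = 0.0579, and 0.00852 with the block) and −0.05 ± 0.17 at 48 h (0.929). From 6 h to 48 h it rose by 0.25 ± 0.07 per day (adjusted p = 0.0496, and 0.00851 with the block). It was the only trend called among the members without the block, where 2.8% of all probe sets rose, against 8.05% with it. With values as deposited or arrays centred on their medians, no member had a rising trend called and 1 had a falling one. Without the filter, the 12 h arrays, experiment 2 or experiment 3 no trend was called.

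In the rest of the lid, Psmd12, a scaffold subunit, had a change of −0.66 ± 0.26 at 12 h and −0.47 ± 0.26 at 24 h (adjusted p = 0.368, and 0.0367 with the block). Psmd6 had a change of −0.33 ± 0.16 at 24 h. Psmd8 stayed within a range of 0.10 over the 9 time means, the narrowest of the tested members. The 3 probe sets of Psmd11 differed in sign at 24 h, 0.14 ± 0.14 for the brightest (94796_at) and −0.15 ± 0.18 (160305_at) and −0.21 ± 0.51 (160304_r_at) for the others, and none was called. In the lid as a whole 9 of 10 probe sets were lower at 24 h, against 49.2% of all. Of them 1 was called without the block, where 2.86% of all probe sets fell, and 3 with it, against 8.01%.

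**Figure D4:**
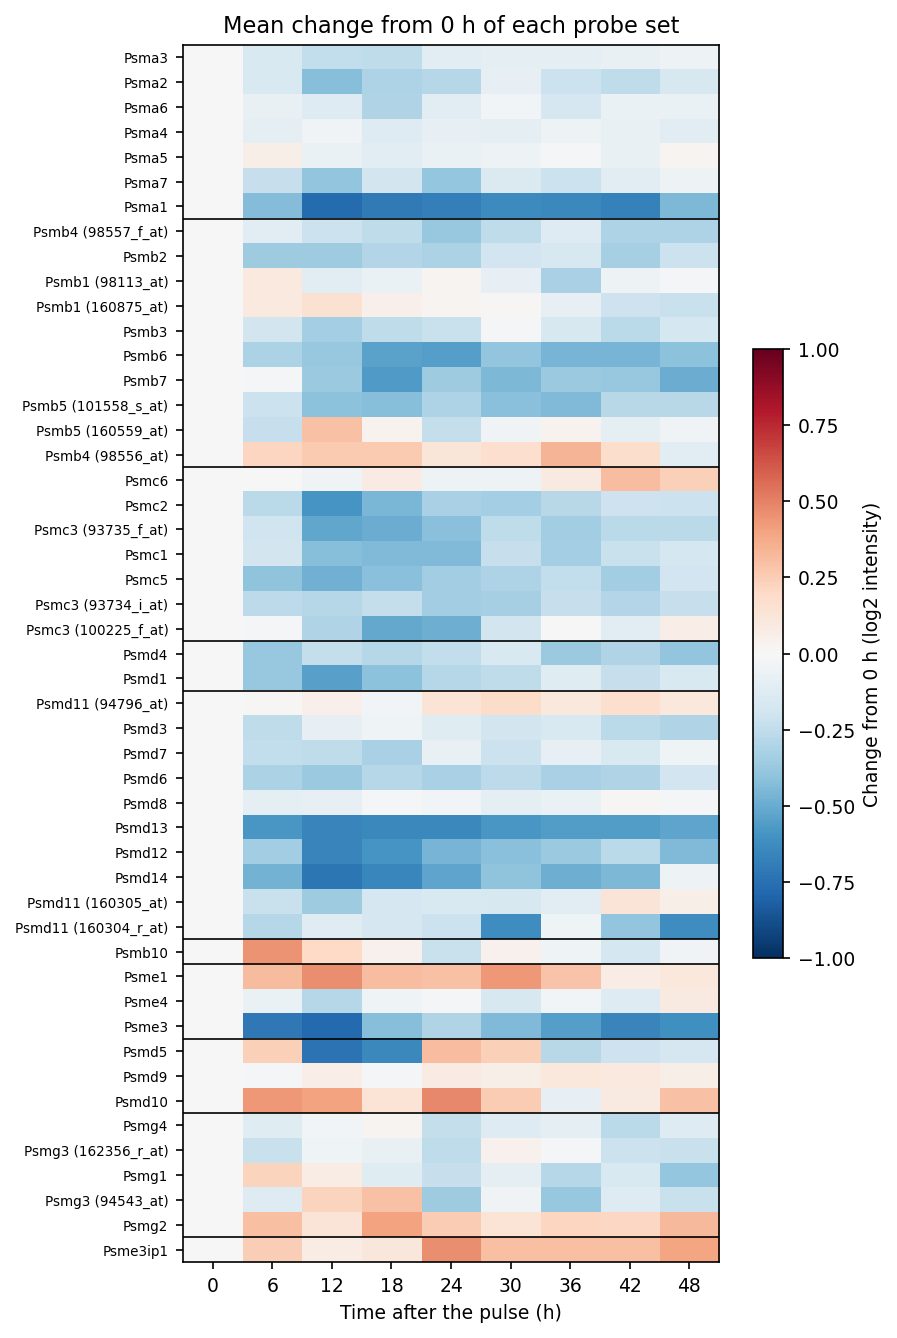
Mean change from 0 h (log2 intensity, blue below 0 and red above) of the 49 tested probe sets, rows in order of subcomplex divided by black lines, columns the 9 time points. The rows from the alpha ring to the lid are mostly blue after 0 h. In contrast, Psmb10 at 6 h, Psme1, Psmg2, Psme3ip1 and, at all times but 36 h, Psmd10 are red.

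Probe sets for subunits of one machine did not share one profile on the 27 arrays to the same degree. As a description across arrays that share the experiment and the 0 h time point, each was correlated with the mean of the other constitutive probe sets. That mean could include other probe sets of the same gene. The median r was 0.72 (range 0.05 to 0.84) for the ATPase ring and 0.68 (0.51 to 0.82) for the alpha ring. For the beta ring it was 0.38 (−0.31 to 0.80) and for the lid 0.34 (−0.06 to 0.76). Probe sets of one gene differed, with 0.80 and −0.10 for Psmb5, 0.59 and −0.31 for Psmb4, and 0.43, 0.23 and −0.06 for Psmd11. A lower median is therefore not a measure of the subunits alone. Psmc3 (93735_f_at) was closest to the others, with r = 0.84, followed by Psma1 at 0.82 and Psmb5 (101558_s_at) at 0.80. The other Psmc3 probe sets, themselves at 0.64 and 0.36, were part of the mean that 93735_f_at was compared with. The median r was 0.53 for the 2 base subunits outside the ATPase ring, 0.24 for the base chaperones, with Psmd5 at 0.52, and −0.05 for the core assembly factors. Psme4 had r = 0.35, Psme3 −0.03, Psmb10 −0.13 and Psme1 −0.35.

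The promoters below show the letters before the start of 5 of the subunit genes with the changes above, from RefSeq on GRCm38.p6, each 250 bases that end just before the start of transcription. Windows were found for 39 of the 46 genes. Capitals mark a match on either strand to the CCAAT box (CCAAT) in Psma1 and Psmd14, and to the core of the antioxidant response element described for proteasome genes (TGACNNNGC) in Psmb5 and Psmb6. Psmd13, the member called most often, holds neither and is printed in lower case throughout.
Psma1, chr7:114276117-114276366, minus strand: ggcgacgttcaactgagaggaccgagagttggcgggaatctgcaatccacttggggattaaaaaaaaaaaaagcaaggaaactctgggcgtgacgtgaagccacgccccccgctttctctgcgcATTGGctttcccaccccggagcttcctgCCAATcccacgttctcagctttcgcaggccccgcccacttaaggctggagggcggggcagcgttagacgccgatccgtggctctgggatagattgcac
Psmd14, chr2:61711444-61711693, plus strand: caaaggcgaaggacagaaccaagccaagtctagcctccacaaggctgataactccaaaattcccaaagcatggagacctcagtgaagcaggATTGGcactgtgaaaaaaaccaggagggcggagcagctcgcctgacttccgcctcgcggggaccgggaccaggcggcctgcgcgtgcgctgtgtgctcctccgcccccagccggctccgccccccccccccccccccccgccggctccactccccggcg
Psmb5, chr14:54617996-54618245, minus strand: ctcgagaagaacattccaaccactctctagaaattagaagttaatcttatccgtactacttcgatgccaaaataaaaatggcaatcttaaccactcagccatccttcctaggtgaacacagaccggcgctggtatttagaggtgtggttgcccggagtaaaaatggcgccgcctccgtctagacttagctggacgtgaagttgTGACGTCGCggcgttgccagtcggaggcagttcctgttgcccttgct
Psmb6, chr11:70525107-70525356, plus strand: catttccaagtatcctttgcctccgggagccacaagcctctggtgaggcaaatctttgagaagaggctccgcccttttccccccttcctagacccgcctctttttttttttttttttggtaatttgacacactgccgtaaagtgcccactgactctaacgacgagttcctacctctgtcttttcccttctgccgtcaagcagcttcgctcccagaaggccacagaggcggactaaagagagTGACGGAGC
Psmd13, chr7:140882144-140882393, plus strand: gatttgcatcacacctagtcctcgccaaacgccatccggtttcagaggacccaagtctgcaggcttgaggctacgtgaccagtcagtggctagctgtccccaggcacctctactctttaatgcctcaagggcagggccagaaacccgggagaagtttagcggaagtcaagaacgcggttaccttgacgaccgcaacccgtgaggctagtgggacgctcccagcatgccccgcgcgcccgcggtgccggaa

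Of the 25 constitutive subunit genes with a window, 4 held TGACNNNGC (Psmb5, Psmb6, Psmc6 and Psmd12), against 11.5% of all 27025 genes of the table. CCAAT was found in 10 of the 25, against 37.5% of all. The cyclic AMP response element in full (TGACGTCA) was in 0 of 25, against 1.77% of all. The E-box of clock factors (CACGTG) was in 1 of 25, Psma4, against 6.86%. The core of the interferon-stimulated response element was in 2 of 25, Psmb3 and Psmd4, against 3.46%. Both strands were searched. A match is a run of letters, not a bound site, and no match says only that these letters are not in this window.

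The immunoproteasome subunits Psmb9 and Psmb10 had their highest mean at 6 h, when most constitutive subunits were already below their 0 h level. Psmb9, which replaces Psmb6 in the immunoproteasome, was just below the filter. Its level was 5.37, 7.19 and 7.15 at 0 h, 7.99, 8.30 and 7.82 at 6 h, and 5.20, 5.72 and 5.49 at 42 h. The arrays at 6 h lay above all those of 0 h and of 42 h. Without the filter the change at 6 h was 1.47 ± 0.62 (adjusted p = 0.285, and 0.0544 with the block). Psmb8, which replaces Psmb5, was dimmer still, with a mean level of 5.16, and its change at 6 h was of the other sign, −0.63 ± 0.46 (adjusted p = 0.716, and 0.355 with the block).

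Psmb10, which replaces Psmb7, was at 9.01, 9.33 and 9.32 at 0 h and at 9.43, 9.97 and 9.60 at 6 h, higher in each experiment and without overlap. The change was 0.45 ± 0.35 (adjusted p = 0.588, and 0.0683 with the block). By 24 h it was −0.22 ± 0.35 (0.844). The arrays of experiment 1 were the lowest for Psmb10 at every time from 0 h to 42 h. Against its constitutive counterpart, the change of Psmb10 from 0 h to the mean of all later arrays was 0.03 and that of Psmb7 was −0.38. The difference was 0.41 in an exact permutation test of which 3 of the 27 arrays were those of 0 h (two-sided, 2925 arrangements, p = 0.0438, adjusted over 2 pairs 0.0438), and it was positive in 3 of 3 experiments, at 0.24, 0.68 and 0.31. Permuting within experiments gave an adjusted p = 0.0123. Without experiment 2 the difference was 0.28 (adjusted p = 0.242), without experiment 3 it was 0.46 (0.098), and without the 12 h arrays 0.38 (0.0647).

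**Figure D5:**
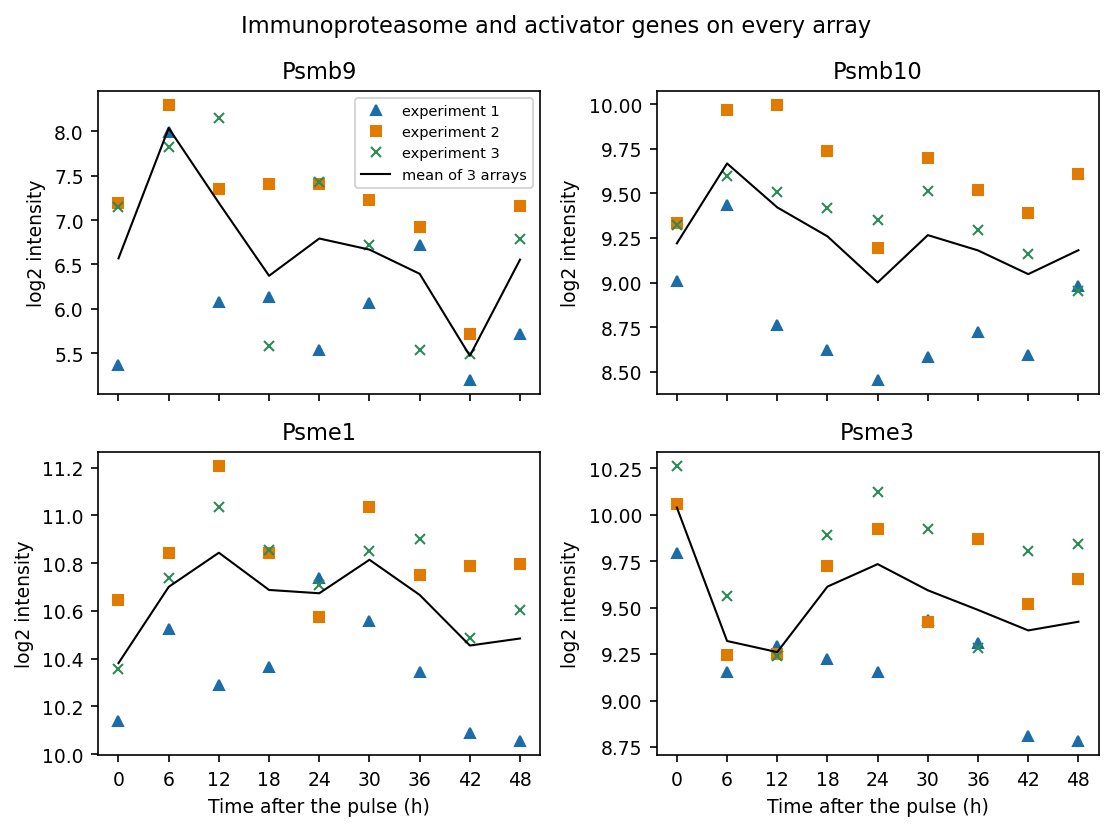
Level (log2 intensity) on every array of Psmb9, Psmb10, Psme1 and Psme3 against time after the pulse, with 1 symbol per experiment and a line through the means of 3 arrays. Psmb9 and Psmb10 have their highest mean at 6 h and Psme1 at 12 h, whereas Psme3 has its highest mean at 0 h and its lowest at 12 h.

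The activators cap the core in place of the 19S particle and gave changes of opposite sign. Psme1, a subunit of the interferon-inducible activator of the cytosol, was at 10.14, 10.65 and 10.36 at 0 h and at 10.52, 10.84 and 10.74 at 6 h, higher in each experiment but with overlapping sets. Its change was 0.32 ± 0.23 at 6 h and 0.46 ± 0.23 at 12 h (adjusted p = 0.559 and, with the block, 0.116 at 6 h). Psme3, the subunit of the related activator of the nucleus, was at 9.79, 10.06 and 10.26 at 0 h and at 9.15, 9.24 and 9.56 at 6 h, without overlap. Its change was −0.72 ± 0.29 at 6 h (adjusted p = 0.163, and 0.0111 with the block) and −0.61 ± 0.29 at 48 h (0.235 and 0.0255). At 24 h, when it was −0.30 ± 0.29, experiment 1 was at 9.15 and the other two at 9.92 and 10.12.

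The difference between both activators held in each experiment. From 0 h to the later arrays Psme1 changed by 0.28 and Psme3 by −0.56. The difference of 0.85 was positive in 3 of 3 experiments, at 0.88, 0.69 and 0.97 (exact permutation test, two-sided, adjusted p = 0.00137). Within experiments the adjusted p was 0.00274, from a p of 0.00137 that is the smallest its 729 arrangements can give. Psme4, the large single-chain activator, had a change of −0.06 ± 0.18 at 6 h and −0.02 ± 0.18 at 24 h. Psme3ip1, the binding partner of Psme3 that is no subunit, had a change of 0.47 ± 0.22 at 24 h (adjusted p = 0.255, and 0.0139 with the block).

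The assembly factors were not called in any comparison with or without the block. Among the base chaperones, which help to build the ATPase ring, Psmd5 had the largest range of time means of all tested members, 1.04. Its level at 0 h was 9.45, 10.53 and 9.24, at 12 h 8.97, 8.83 and 9.20, and at 24 h 10.49, 10.20 and 9.44. The 12 h arrays lay below all those of 0 h and 24 h. The change was −0.74 ± 0.36 at 12 h and 0.31 ± 0.36 at 24 h (adjusted p = 0.768), the latter −0.03 without experiment 1. Psmd10 was dim and had a change of 0.48 ± 0.30 at 24 h, and Psmd9 of 0.08 ± 0.35. Of the core chaperones, Psmg1 had a change of −0.23 ± 0.24, Psmg4 of −0.24 ± 0.17 and Psmg2 of 0.25 ± 0.23 at 24 h. The 2 probe sets of Psmg3 had changes of −0.25 ± 0.22 and −0.36 ± 0.32.

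For the question of the title, a 24 h rhythm was tested on the 24 arrays from 6 h to 48 h beside a linear trend. No member was called in limma, and 0 of the 7453 probe sets were. At an unadjusted limit of 0.05 there were 247 of all and 2 members, Psmd5 and Psmd14. The fit with the block also called 0, with 785 of all and 3 members at the unadjusted limit. The largest amplitude was that of Psmd5, 0.44 ± 0.13 with a peak at 3.49 h of the cycle (adjusted p with the block = 0.241). That of Psmd14 was 0.15 ± 0.06. For these amplitudes ± gives the SE of the cosine term alone, not of the amplitude. The median amplitude over the 49 members was 0.08, against 0.09 over all probe sets.

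The last day was compared with the first without the 0 h arrays. At 48 h against 24 h, 27 of the 36 constitutive probe sets were higher, with a median change of 0.10, against −0.00309 over all probe sets. Without experiment 3 this was 22 of 36 and 0.02. With all 3 experiments 50.5% of all probe sets were lower at 48 h than at 24 h. No member was called in limma, where 0.0268% of all probe sets were, nor with the block, where 0.564% were. One member had an unadjusted p below 0.05 without the block, Psmd14, with a change of 0.48 ± 0.17 (adjusted p = 0.827).

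Genes that work with the proteasome were read from a list of 29, of which 14 were on the array and 20 probe sets for 13 genes were tested. None was called at 24 h with or without the block. At 6 h 2 of the 20 fell with the block, against 6.78% of all probe sets, and 0 without it: Nfe2l2, a regulator of antioxidant genes, by 0.50 ± 0.23 (adjusted p with the block = 0.0311), and Ubqln1 (95601_at), a shuttle of ubiquitinated proteins, by 0.46 ± 0.22 (0.0421). Rad23b (96102_i_at), another shuttle, varied over time (adjusted p = 0.0123) and rose by 0.53 ± 0.14 at 48 h (0.017), where 4.68% of all probe sets rose. Its second probe set (96103_f_at) had a change of −0.14 ± 0.36 at 48 h. With the block 1 probe set of the list fell at 48 h, against 9.16% of all, 1 of the 4 for the chaperone Bag6 (93922_g_at), with −0.40 ± 0.33 (adjusted p = 0.583, and 0.0305 with the block). Uchl5, a deubiquitinase of the cap, had a change of −0.35 ± 0.24 at 24 h, and the brighter Ubqln1 probe set (99575_at) of −0.04 ± 0.15. The probe sets of Vcp, an ATPase that extracts proteins for degradation, differed in sign at 24 h. The changes were 0.06 ± 0.33 for the dim one (97666_r_at) and −0.11 ± 0.19 for the bright one (100710_at). Both probe sets of Nfe2l1 were not called, at 0.37 ± 0.18 and 0.27 ± 0.18 at 6 h.

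Class I antigen presentation, which uses the peptides the proteasome makes, was read from a list of 12 genes, of which 9 were on the array and 13 probe sets for 8 genes were tested. At 6 h 2 rose and none fell without the block, against 3.7% of all probe sets that rose, and 5 rose with it, against 9.94%. The 5 were those of Tap2 and Tap1 and all tested probe sets of Tapbp. From 6 h to 48 h 4 of the 13 had a falling trend called, against 246 of all 7453. With the block 6 had one, against 9.03% of all. Tap2 and Tap1, which carry peptides into the endoplasmic reticulum, rose by 0.87 ± 0.17 (adjusted p = 0.00249) and 0.65 ± 0.18 (0.0275) at 6 h, the time at which Psmb9 and Psmb10 had their highest means. Tapbp, which links the carrier to class I molecules, rose by 0.74 ± 0.15 at 24 h (102689_at, adjusted p = 0.00224), where 4.11% of all probe sets rose. Its brightest probe set (100154_at) had a change of 0.71 ± 0.25 at 24 h (0.0978, and 0.00196 with the block). The remaining one (162104_f_at) had a change of 0.39 ± 0.15 (0.14, and 0.0205 with the block). H2-K1 (93120_f_at), a class I heavy chain, varied over time (adjusted p = 0.0101) and was at −0.57 ± 0.19 at 48 h (0.0629, and 0.0023 with the block). At 6 h the probe sets of H2-K1 differed in sign. The changes were 0.27 ± 0.19 (93120_f_at), 0.07 ± 0.45 (97125_f_at) and −0.98 ± 0.37 (97700_at), none of them called.

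The probe sets outside the proteasome whose 27 values followed the mean of the constitutive subunits most closely were ranked by r among 7404. Cct3, a subunit of the cytosolic chaperonin, came first with r = 0.93, and 0.90 after the means of each experiment were removed. It was followed by Prmt1, an arginine methyltransferase, at 0.85, Nucks1, a nuclear phosphoprotein, at 0.82, Alyref, an mRNA export factor, at 0.81, and Hspa4, a heat shock protein, at 0.80. The next were Nmt1 and Snrpa1 at 0.80, Topbp1 at 0.80, and Cyc1 and Ufm1 at 0.79. At 24 h the change of Cct3 was −0.53 (adjusted p = 0.0744, and 0.00526 with the block). All these arrays share the 0 h time point and the experiments, so the values of r describe this course only.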

How the data were processed

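RNA of NIH/3T3 cells was measured on 27 arrays, 3 per time point. The authors deposited linear probe set intensities. The sources used here do not give how they were summarised, and detection calls were not used. A pseudocount of 12.1, the 10th percentile of all values, was added before log2, so that changes of dim probe sets are understated. Array medians spread over 0.248 on that scale, above the limit of 0.2, and the arrays were quantile normalized. A filter removed the 66 controls and the dimmest sets, those under the 40th percentile of average level, which kept 7453. No 2 arrays were identical. Precision is limited by the number of arrays.

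Models were fitted with limma 3.58.1 (R 4.3.3), eBayes having a trend by intensity, over all kept probe sets, with Benjamini-Hochberg adjustment at 0.05. One fit of the 9 time means gave the F test and the contrasts. A linear term beside a cosine and a sine of 24 h, on the 24 arrays from 6 h, gave the trend and the rhythm. Residuals from the time means were positively correlated in all 36 pairs of arrays within each experiment, with r from 0.426 to 0.642, 0.349 to 0.599 and 0.135 to 0.482 in experiments 1, 2 and 3. The numbers, which the labels give to biological replicates, therefore paired the samples. The fit with the experiment as a block is printed where it changes the call of a value given here. Other calls that changed with it, such as some in the F test, are not all printed. The SE given is that of the fit without it. The code was tested on simulated data.

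Pairs of an inducible and a constitutive gene were compared by exact permutation. Of 5 intended pairs 3 were left out, since Psmb8 and Psmb9 were below the filter and Psme2 had no probe set of its own symbol. Genes given by value were the catalytic beta subunits, activators, core assembly factors, in each other subcomplex the 3 probe sets with the smallest F test p, members called without the block, genes whose probe sets differed in sign, up to 4 genes of each list and 10 most alike probe sets. Psma7, Psma5, Psmc3, Psmd12, Psmd6, Psmd8, Psme3ip1, Tap1, Nfe2l1 and Nfe2l2 were added after their values were seen. Symbols are those of the platform annotation. Suffixes such as f, s, r and i in a probe set name mark designs that may match several transcripts. Promoters came from RefSeq (GRCm38.p6). The members, lists and tests were chosen with earlier results of these data known. Alternatives changed scaling, pseudocount, filter, variance model, block, replicates and the 12 h arrays, 2 of which carry another description than the rest.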

Additional observations from a re-analysis of the deposited data

How the results depend on the processing

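The median change of the constitutive subunits at 24 h stayed between −0.25 and −0.32 under all settings run; at 6 h it was −0.22, and −0.15 to −0.26 with 1 experiment left out. The counts of called members, being small, moved with most settings. Over the 9 time points 1 member was called, but 0 with values as deposited, without the filter or without the 12 h arrays, 7 with the experiment as a block, and 0 with any 1 experiment left out. At 6 h against 0 h 1 was called, but 0 with arrays centred on their medians, 6 with the block, and 0 with any experiment left out. At 24 h 2 were called, but 1 without the filter, 16 with the block, and 0 to 2 with 1 experiment left out. At 48 h 1 was called, but 0 with centred arrays or without the filter, 8 with the block, and 0 with any experiment left out. For the trend 1 was called, a rise. As deposited and with centred arrays 0 rose and 1 fell. The count was 0 without the filter or the 12 h arrays, 2 with the filter at the 60th percentile or with the block, and 0 to 4 with 1 experiment left out. The rhythm and 48 h against 24 h gave 0 under every setting. The difference of Psmb10 and Psmb7, 0.41, was 0.38 without the 12 h arrays (exact permutation test, adjusted p = 0.0647) and 0.28 to 0.55 with 1 experiment left out. That of Psme1 and Psme3 kept its call throughout. Among changes at 24 h that were not called, the sign turned for Psme4 (0.0223 as deposited, 0.0164 with centred arrays). With 1 experiment left out, changes of both signs were found for Psme4 (−0.133 to 0.161), Psmd11 160304_r_at (−0.462 to 0.0544), Psmb1 160875_at (−0.183 to 0.159), Psmd5 (−0.0273 to 0.622) and Psmb4 98556_at (−0.0538 to 0.217). The causes were not tested. Dim members have no detection call, so their level could not be told from background.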
